A study of Mus musculus with 8 samples.

Results

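The genes described are 34 members of the fibroblast growth factor (FGF) pathway, namely 21 FGF genes, 5 receptors, 7 feedback inhibitors and the adaptor Frs2. They were found on the array as the 51 non-control probes whose RefSeq accession leads to 1 of these symbols, among 55681 probes for 36799 genes and other targets. Of the 34 members, 13 had several probes, and a member was then represented by its brightest probe. RNA came from the back skin epidermis of newborn (P0) C57BL/6 mice, 4 of them control and 4 EED cKO. The EED cKO genotype is K14-Cre; EED flox/flox. Its recombinase is driven by the keratin 14 promoter of basal keratinocytes, so that Eed, which encodes a subunit of the repressive complex PRC2, is deleted in the epidermis. The alleles of the control mice are not given in the labels beyond the word control. Every sample shared its array with the commercial Universal Mouse Reference RNA, with the sample in Cy3 on 2 arrays of each genotype and in Cy5 on the other 2. Values are therefore log2 ratios of epidermis over reference RNA for 1 probe, and they rank samples for that probe but do not rank genes.

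FGF ligands are secreted proteins that bind receptor tyrosine kinases together with heparan sulfate. The activated receptor phosphorylates the docking protein Frs2, which recruits Grb2, Sos and Shp2 and starts the Ras and MAP kinase cascade. Sprouty and Spred proteins and the phosphatase Dusp6 are induced by this cascade and damp it. In skin, ligands made by the dermis, such as Fgf7 and Fgf10, act on the epithelial form of Fgfr2 in keratinocytes, and FGF signals take part in placode formation, hair growth and barrier upkeep. A smaller group, the FGF homologous factors, stays inside the cell and binds voltage-gated sodium channels.

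Eed itself was 2.75-fold lower in EED cKO (log2 fold change -1.46, adjusted p = 2.14e-05, limma), with no overlap between the genotypes. On the 8 arrays 51.5% to 65.5% of spots were well above background and 0 spots were saturated. The epidermal keratins Krt5, Krt14, Krt1 and Krt10 were well above background on all 8 arrays. Y-linked genes were high on 2 of the 4 control arrays (replicates 2 and 3; mean log2 ratios 1.19 and 1.02) and low on the other 6 (-1.51 to -1.31), so that sex was not balanced between the genotypes. Of the Merkel cell markers, 7 of 8 tested were higher in EED cKO. The log2 of the summed sample signal of the list ranged from 12.4 to 12.9 in EED cKO and from 12.2 to 12.6 in control. Rab3c, which was not called, made up the most of this sum. Of the 8 endothelial markers 3 were tested, and Pecam1 and Kdr were higher. Another 4, Cdh5 among them, were well above background on 0 of 8 arrays. The summed endothelial signal, of which Kdr made up the most, ranged from 12.2 to 12.6 against 11.5 to 12.1. Of 9 tested hair follicle markers Sox9 was higher and Lef1 and Shh were lower. The summed signal, of which Krt17 and Krt79 (not called) made up the most, ranged from 16.3 to 16.7 against 15.5 to 16.0. These sums use the sample channel without the reference. In that channel Krt79 was 15.3 against 14.4 and Krt17 15.4 against 14.8. Over the reference their log2 fold changes were 0.03 and 0.08, so the summed range does not show more hair follicle RNA. Of the 8 basal epidermal markers Itga6, Itgb4 and Col17a1 were lower and the other 5, Krt5 and Krt14 among them, were not called. The median log2 fold change of all 8 was -0.01. Of 10 dermal fibroblast markers 2 were higher and 2 lower. Of the dermal papilla markers Trps1 and Crabp1 were higher and Vcan lower (5 of 8 tested), of the immune markers Cd3e and Cd74 were higher (7 of 8 tested), and of the adipocyte markers Fabp4 and Lpl were higher (3 of 6 tested, with Adipoq well above background on 0 of 8 arrays). The part of these markers and of sex in the FGF values below was not tested, except where a value with the Y-linked level as a covariate is given. In bulk RNA, fewer cells of a type and less RNA per cell cannot be told apart.

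Of the 34 members, 21 were tested, meaning that in at least 1 genotype 3 or more arrays showed a sample signal well above background. Among them 7 were called changed at an adjusted p below 0.05 (33.3%). The share was 21.7% of all 23139 genes and other targets tested, and 25.9% of the 14946 with a gene symbol. Fgf1, Fgf14 and Fgfr1 were higher in EED cKO (3 of 21, background 11.8%), and Fgfr3, Spry1, Spred2 and Frs2 were lower (4 of 21, background 9.95%). Here and below, shares by direction are over all 23139 genes and other targets, and were not taken for those with a symbol alone. A change of at least 2-fold was reached by Fgf1 alone among the tested members, and by 1.2% of all genes tested. The median log2 fold change of the 21 members was -0.04, against 0.02 over all genes tested, and the median size of the change regardless of sign was 0.22 against 0.14. The genotypes did not overlap for Fgf1 and Fgfr1, with every EED cKO array above every control array (background 9.65%), or for Spry1 and Spred2, with every EED cKO array below (background 7.52%).

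**Figure D1:**
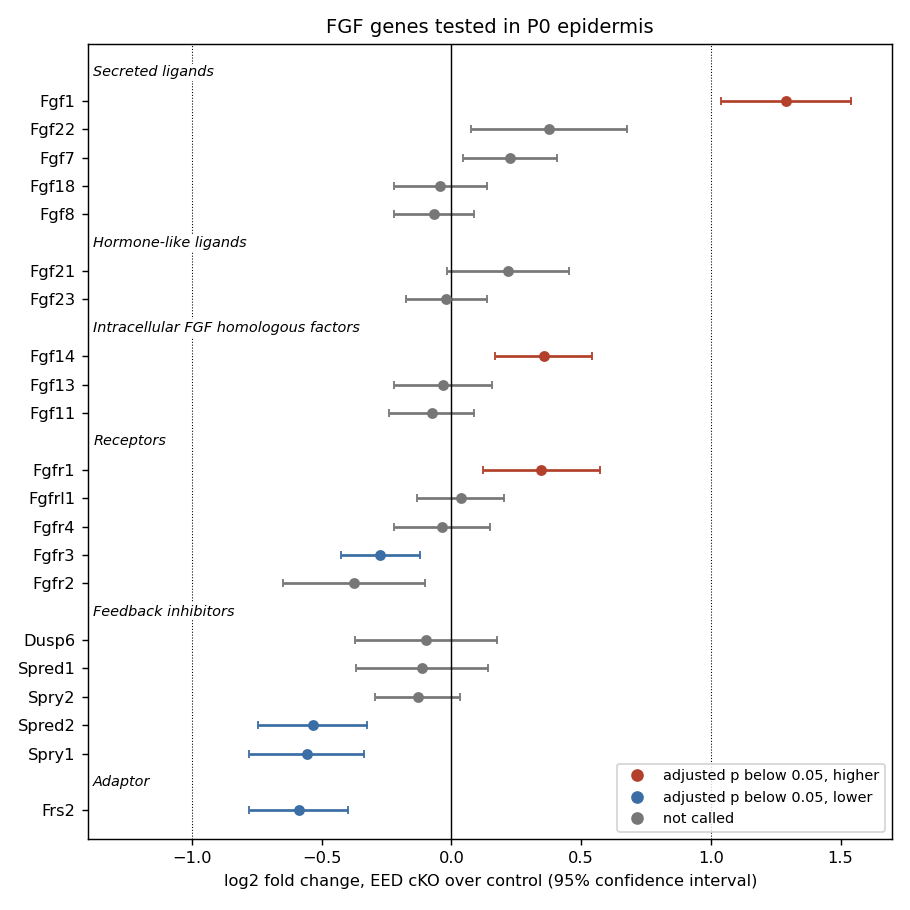
Log2 fold change of EED cKO over control for the 21 tested FGF genes, grouped by role, with 95% confidence intervals from 4 arrays a genotype. Dotted lines mark 2-fold. Fgf1 lies alone to the right at 1.29, and Spry1, Spred2 and Frs2 lie together between -0.59 and -0.53.

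Among the 14 secreted ligands, 5 were tested and Fgf1 was the 1 called. Fgf1, or acidic FGF, binds all the FGF receptors and leaves the cell without a conventional signal peptide. Its brighter probe read 1.43, 1.88, 1.38 and 1.96 on the EED cKO arrays 1 to 4 and 0.24, 0.58, 0.42 and 0.25 on the control arrays. All 4 EED cKO arrays were far above the highest control array. The fitted difference was 2.44-fold (log2 fold change 1.29, SE 0.11, adjusted p = 0.000158). It was 1.07 between the arrays with Cy3-labeled samples and 1.51 between those with Cy5-labeled samples, and the reference channel of the probe differed between genotypes by -0.01.

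The dimmer Fgf1 probe read 0.18, 0.24, 0.31 and 0.10 in EED cKO and 0.21, -0.01, 0.31 and -0.13 in control. The genotypes overlapped. Its log2 fold change was 0.11 (SE 0.08, adjusted p = 0.376 over all probes tested), with a 95% confidence interval of -0.07 to 0.30. Its sample channel was well above background on 4 EED cKO arrays and on 1 control array, and its reference channel on 1 of the 8 arrays. With a reference channel this dim, the ratios of this probe do not give a level against the reference RNA. With the Feature Extraction log ratio, which has no offset, its log2 fold change was 0.96 (adjusted p = 0.300) and that of the brighter probe 1.88. The difference between the probes on an array (brighter minus dimmer) was 1.25, 1.64, 1.07 and 1.86 in EED cKO and 0.03, 0.59, 0.12 and 0.38 in control, which did not overlap. The mean of this difference was 1.18 higher in EED cKO (exact two-sided permutation test, p = 0.0286, the smallest that 4 against 4 arrays allow). With median centring in place of loess it was 0.97 (exact p = 0.0571), and with the Feature Extraction log ratio 0.92 (exact p = 0.314). The call of Fgf1 came from its brighter probe, and with the mean over both probes the gene was called at 0.70 (adjusted p = 0.00164), which is under 2-fold.

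**Figure D2:**
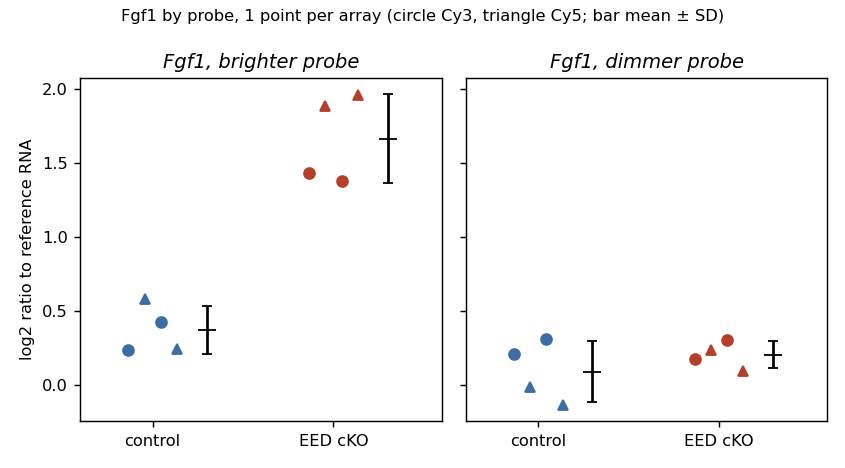
Log2 ratio of epidermis over reference RNA for the brighter (left) and dimmer (right) Fgf1 probe, 1 point per array with circles for Cy3 and triangles for Cy5 samples, and a bar for mean ± SD (n = 4). The EED cKO points stand clear of control for the brighter probe, from 1.38 to 1.96 against 0.24 to 0.58, and mix with control for the dimmer probe.

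Fgf22 and Fgf7 belong to the same subfamily of ligands, which act on the epithelial form of Fgfr2. Fgf22 was 1.04 ± 0.27 (SD, n = 4) in EED cKO and 0.66 ± 0.22 in control, a log2 fold change of 0.38 (SE 0.13, adjusted p = 0.0725). It was higher in EED cKO for each of the 4 replicate numbers, by 0.24 to 0.48, and with the replicate number as a block in place of the dye it was called (adjusted p = 0.00838). Fgf7, keratinocyte growth factor, lay far below the reference RNA in both genotypes, at -4.34 ± 0.27 in EED cKO and -4.56 ± 0.43 in control. Its log2 fold change was 0.23 (adjusted p = 0.0720), but -0.04 with the Feature Extraction log ratio. Fgf8, a ligand of embryonic signalling centres, and Fgf18, a ligand of bone and of the resting hair follicle, had log2 fold changes of -0.07 (95% confidence interval -0.22 to 0.09) and -0.04 (-0.22 to 0.14). On this scale a difference of 2-fold lay outside the intervals of all 4 of these ligands. The offset draws dim spots toward a ratio of 1, so for the dim Fgf22 and Fgf8 probes the intervals cannot exclude it. Fgf22 was 0.60 with an offset of 10, and Fgf8 was -0.37 with the Feature Extraction log ratio.

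The other 9 secreted ligands did not reach the filter. Fgf2, Fgf4, Fgf6, Fgf16 and Fgf17 were well above background on 0 of 8 arrays. Fgf10, a dermal ligand of budding epithelia, was so on 1 control array, with no EED cKO array. Fgf3, Fgf5, which ends hair growth, and Fgf9 were each well above background on 2 EED cKO arrays and on 0 control arrays. Their other arrays were not well above background, so no fold is given. The log2 ratios of Fgf3 and Fgf5 did not overlap between the genotypes, with EED cKO above (background 9.65% of genes tested), and those of Fgf9 overlapped. Without the filter on dim probes Fgf3 was called.

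**Figure D3:**
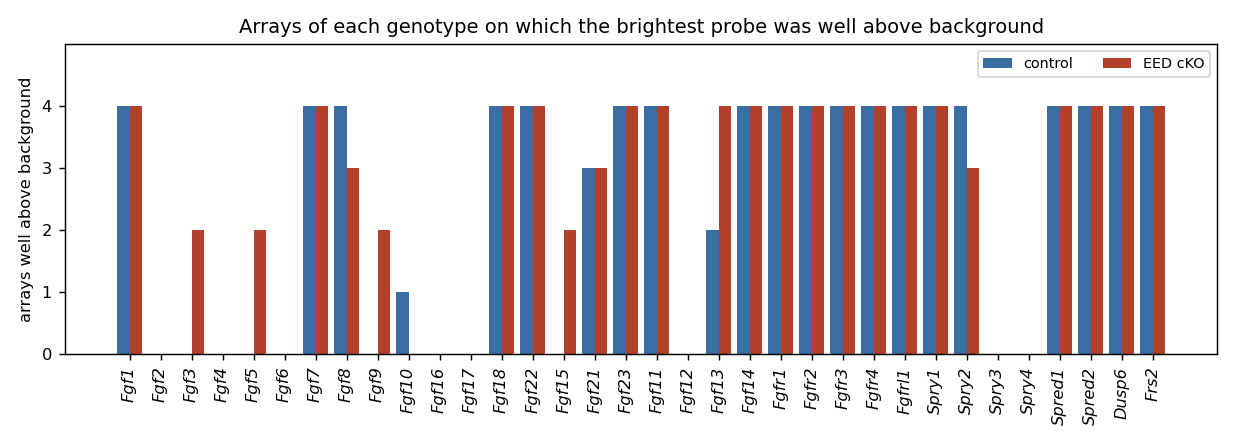
Number of arrays, of 4 per genotype, on which the brightest probe of each of the 34 FGF genes gave a sample signal well above background. The receptors reach 4 in both genotypes, whereas 8 genes are at 0 in both, and Fgf3, Fgf5, Fgf9 and Fgf15 are at 2 in EED cKO and 0 in control.

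The hormone-like ligands travel in blood and need a Klotho protein as coreceptor. Fgf21, a metabolic hormone of liver, was measured at -1.57 ± 0.17 in EED cKO and -1.78 ± 0.19 in control (log2 fold change 0.22, adjusted p = 0.169). Fgf23, a phosphate hormone of bone, had a log2 fold change of -0.02 (adjusted p = 0.879). Its brighter probe was well above background on all 8 arrays and its other probe on 0, and both channels of the brighter probe were higher on the EED cKO arrays, by 0.26 for the sample and 0.28 for the reference. Fgf15, a bile acid hormone of gut, was well above background on 2 EED cKO and 0 control arrays, and its log2 ratios overlapped between the genotypes.

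Of the 4 FGF homologous factors, Fgf14 was called. It read 1.15, 0.75, 1.09 and 1.05 in EED cKO and 0.86, 0.58, 0.72 and 0.45 in control. The genotypes overlapped through EED cKO replicate 2, which lay below control replicate 1, but EED cKO was higher for each replicate number. The log2 fold change was 0.36 (SE 0.08, adjusted p = 0.0158), or 1.28-fold. Its other 2 probes were well above background on 0 of 8 arrays. The call was lost with median centring (0.24, adjusted p = 0.125) and with the Y-linked level as a covariate (0.36, adjusted p = 0.0564). Fgf11 and Fgf13 had log2 fold changes of -0.08 (adjusted p = 0.501) and -0.03 (adjusted p = 0.821). Fgf13 was well above background on 4 EED cKO and 2 control arrays, and Fgf12 on none of the 8.

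All 5 receptors were tested, and all were well above background on all 8 arrays. Fgfr3 and Fgfr2 lay above the reference RNA in epidermis, and Fgfr1 and Fgfrl1 below it. Fgfr3, a receptor of epithelia and growth plate cartilage, read 3.01, 3.29, 3.02 and 3.13 in EED cKO and 3.22, 3.55, 3.30 and 3.48 in control on its brighter probe. The EED cKO array of replicate 2 lay inside the control range, while each EED cKO array was below the control array of its number. The log2 fold change was -0.27 (SE 0.07, adjusted p = 0.0200), or 1.21-fold lower. On this probe the reference channel, which holds the same RNA everywhere, was also lower on the EED cKO arrays, with a log2 difference of -0.64, against -0.92 in the sample channel. The part of that in the result was not tested. Its dimmer probe read 0.97, 1.07, 0.90 and 0.41 in EED cKO and 1.11, 1.92, 1.58 and 1.64 in control, with no overlap. There the log2 fold change was -0.73 (SE 0.18, adjusted p = 0.0211 over all probes tested), and the reference channel differed by -0.01. The brighter probe lost its call in 10 of 23 alternatives, with log2 fold changes that stayed below 0.

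Fgfr2, the receptor through which dermal ligands reach keratinocytes, was just outside the threshold on its brighter probe. That probe read 1.09, 0.82, 0.73 and 0.69 in EED cKO and 0.93, 1.41, 1.23 and 1.26 in control. The 3 lowest arrays were EED cKO, and control replicate 1 fell below EED cKO replicate 1. The log2 fold change was -0.38 (SE 0.12, adjusted p = 0.0538). The dimmer probe read 0.99, 1.04, 0.87 and 0.84 in EED cKO and 1.01, 1.66, 1.16 and 1.52 in control, overlapping in 1 pair of arrays, and it was called (log2 fold change -0.40, SE 0.11, adjusted p = 0.0308 over all probes tested). Without control replicate 1 the gene was called at -0.48 (adjusted p = 0.0192), and without EED cKO replicate 1 at -0.49 (adjusted p = 0.0187). Leaving out any 1 of the other 6 arrays gave -0.36 to -0.30 with adjusted p from 0.101 to 0.161, and with the Y-linked level as a covariate it was -0.27 (adjusted p = 0.234).

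Fgfr1, the receptor most abundant in mesenchyme, read -2.20, -1.96, -1.94 and -2.23 in EED cKO and -2.57, -2.24, -2.58 and -2.33 in control on its brightest probe. Every EED cKO array was above every control array, though EED cKO replicate 4 and control replicate 2 nearly touched. The log2 fold change was 0.35 (SE 0.10, adjusted p = 0.0370). The other 2 probes gave -0.10 (adjusted p = 0.321) and 0.21 (adjusted p = 0.0829), so that the probes of Fgfr1 differed in sign. The call was lost in 15 of 23 alternatives, among them 7 of the 8 that leave out 1 array, and the adjusted p ranged from 0.0188 to 0.432. Fgfr4 was at -0.10 ± 0.05 in EED cKO and -0.06 ± 0.14 in control, and Fgfrl1, a receptor without a kinase domain, at -2.12 ± 0.09 and -2.15 ± 0.08. Their log2 fold changes were -0.03 (95% confidence interval -0.22 to 0.15) and 0.04 (-0.13 to 0.20).

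**Figure D4:**
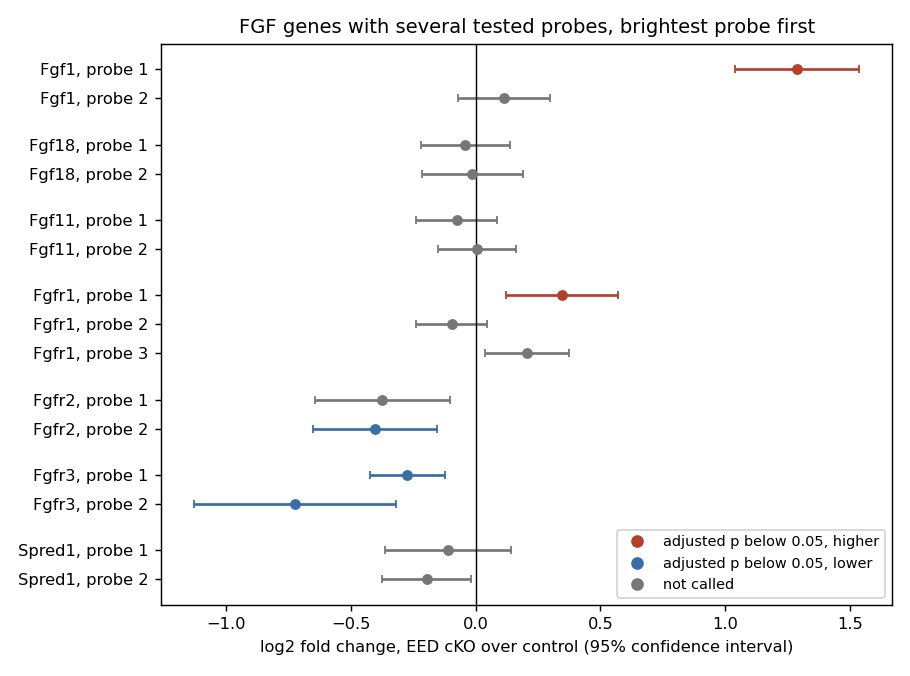
Log2 fold change of EED cKO over control, with 95% confidence intervals, for each probe of the FGF genes with several tested probes, brightest probe first. Both probes of Fgfr2 and of Fgfr3 lie left of 0, the probes of Fgfr1 lie on both sides, and those of Fgf1 stand apart at 1.29 and 0.11.

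At the level of single probes, 29 of the 51 were tested and 9 were called, 3 higher and 6 lower in EED cKO, beside 19.9% of all 30727 probes tested (10.9% higher and 9.05% lower).

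The intracellular inhibitors and the adaptor Frs2 held 3 of the 4 members that fell. For Spry1, Spred2 and Frs2, each called lower, the 250 bases before the RefSeq transcription start are shown. They are from the mouse build GRCm38.p6, read in the direction of transcription. Whether these genes changed together was not tested. Capitals mark GGGCGG or its reverse complement CCGCCC, the core of the GC box bound by Sp family factors.
Spry1, chr3:37639697-37639946, plus strand: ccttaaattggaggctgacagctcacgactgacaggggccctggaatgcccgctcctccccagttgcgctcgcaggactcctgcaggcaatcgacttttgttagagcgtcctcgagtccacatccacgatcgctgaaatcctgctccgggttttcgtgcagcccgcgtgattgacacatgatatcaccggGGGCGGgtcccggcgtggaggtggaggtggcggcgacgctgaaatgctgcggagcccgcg
Spred2, chr11:19924192-19924441, plus strand: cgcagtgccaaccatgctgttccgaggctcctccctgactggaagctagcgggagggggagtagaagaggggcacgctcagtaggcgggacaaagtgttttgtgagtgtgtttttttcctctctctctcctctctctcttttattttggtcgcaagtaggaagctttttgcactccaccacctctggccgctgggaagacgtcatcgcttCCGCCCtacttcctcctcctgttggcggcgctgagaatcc
Frs2, chr10:117148475-117148724, minus strand: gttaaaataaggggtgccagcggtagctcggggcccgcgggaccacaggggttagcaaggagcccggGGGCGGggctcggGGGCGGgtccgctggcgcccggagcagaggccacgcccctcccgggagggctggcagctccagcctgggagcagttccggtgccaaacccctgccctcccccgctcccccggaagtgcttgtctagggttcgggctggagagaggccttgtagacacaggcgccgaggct
The motif occurs 1 time upstream of Spry1, 1 time upstream of Spred2 and 2 times upstream of Frs2. CpG dinucleotides number 23, 12 and 19, against medians of 18 over the windows of the FGF members and 6 over all 32851 windows of this length. At least 1 copy of the motif lies in 32.7% of all these windows. Windows were found for 26 members, and 18 of these hold the motif in at least 1 window. By window it lies in 22 of 33, and the median GC content of these 33 is 62.4%, against 52.4% over all windows. Of the called members not shown, Fgf14, which was higher, has 2 copies and 7 CpG dinucleotides, and the windows of Fgfr3, which was lower, have 3 and 2 copies. Among the feedback inhibitors tested without a called change, Spry2 and Dusp6 have 23 and 16 CpG dinucleotides and no copy of the motif, and Spred1 has 31 and 2 copies. Other tested members without a called change also hold the motif, with 4 copies in Fgfrl1, 3 each in Fgf21 and Fgf22, 2 in Fgfr4 and 1 in Fgf18. Fgf13 holds it in some of its windows, and Fgf7, Fgf11, Fgf23 and Fgfr2 have no copy. A match is a description of the letters and not a site of binding.

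Spry1 encodes a Sprouty protein, which blocks signalling between receptor and Ras. It read 0.84, 1.45, 1.08 and 1.08 in EED cKO and 1.52, 1.92, 1.51 and 1.72 in control. The genotypes did not overlap, and the margin between EED cKO replicate 2 and the lowest control array was small. Spry1 was 1.47-fold lower in EED cKO (log2 fold change -0.56, SE 0.10, adjusted p = 0.00491), by the same -0.56 within Cy3 arrays and within Cy5 arrays. The call was kept in 22 of 23 alternatives.

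Spred2 encodes a Sprouty-related membrane protein that keeps Ras inactive through neurofibromin. It read -0.47, -0.15, -0.35 and -0.32 in EED cKO and -0.08, 0.49, -0.06 and 0.51 in control. The genotypes did not overlap, and the control arrays fell into a lower pair with Cy3-labeled and a higher pair with Cy5-labeled samples. The log2 fold change was -0.53 (SE 0.09, adjusted p = 0.00485), and it was -0.34 within Cy3 arrays and -0.73 within Cy5 arrays.

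Frs2 is the docking protein that links the receptors to Ras. It read -1.005, -0.62, -1.07 and -0.72 in EED cKO and -0.44, -0.0045, -0.69 and 0.07 in control. The lowest control array, replicate 3, lay between the EED cKO arrays, and every EED cKO array was below the control array with the same number. Frs2 had the lowest log2 fold change of the tested members, -0.59 (SE 0.08, adjusted p = 0.00207), with -0.47 within Cy3 arrays and -0.70 within Cy5 arrays. Without the dye in the model neither Spred2 (adjusted p = 0.0522) nor Frs2 (adjusted p = 0.0614) was called. With the Y-linked level as a covariate Spry1, Spred2 and Frs2 kept their calls, at -0.51, -0.54 and -0.66.

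**Figure D5:**
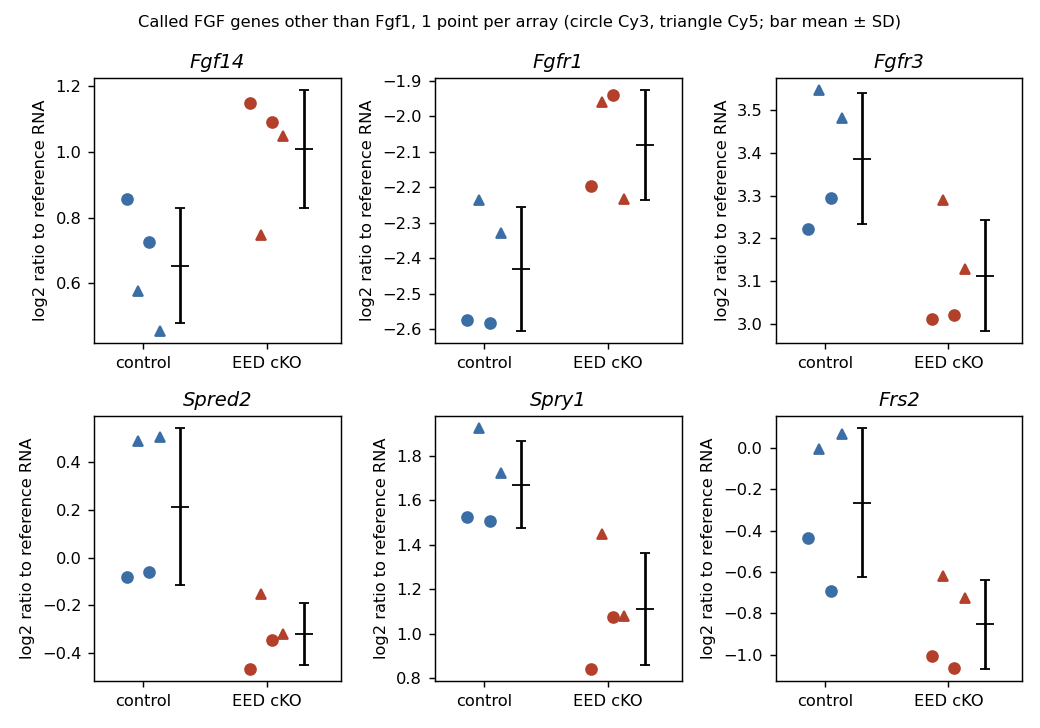
Log2 ratio of epidermis over reference RNA for the called FGF genes other than Fgf1, 1 point per array with circles for Cy3 and triangles for Cy5 samples, and a bar for mean ± SD (n = 4). Each panel has its own vertical scale. Fgf14 and Fgfr1 are higher and the other 4 genes lower in EED cKO, with overlap between genotypes for Fgf14, Fgfr3 and Frs2.

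The other feedback inhibitors were not called. Spry2, the Sprouty of many epithelia, had a log2 fold change of -0.13 (adjusted p = 0.235), and -0.65 with the Feature Extraction log ratio, where it was called (adjusted p = 0.0426). Spred1 had -0.11 (adjusted p = 0.526) on its brightest probe and -0.20 (adjusted p = 0.112) on the next. Dusp6, the phosphatase of ERK that serves as a common readout of FGF signalling, was at -1.34 ± 0.23 in EED cKO and -1.24 ± 0.19 in control, with a log2 fold change of -0.10 (SE 0.12, adjusted p = 0.617) and a 95% confidence interval of -0.37 to 0.18. Spry3 and Spry4 were well above background on 0 of 8 arrays. All 5 tested feedback inhibitors had a fitted log2 fold change below 0, from -0.56 to -0.10. Of all 21 tested members 14 were below 0. Among the 5 inhibitors 2 were called lower, beside 9.95% of all genes tested. The 95% confidence intervals of Spry2, Spred1 and Dusp6 included 0.

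The genes around these members were read from 3 lists, with 78 genes of which 71 were tested. Of these 30 were called, 8 higher (11.3%) and 22 lower (31.0%), beside 11.8% and 9.95% of all genes tested, and none reached 2-fold. In either direction 42.3% were called, beside 25.9% of the tested genes with a symbol. The shares by direction were not taken for genes with a symbol alone. Of the signal transducers downstream of Frs2, 28 of 30 were tested, 2 were higher and 10 lower, with a median log2 fold change of -0.17. The largest changes were falls of Pik3r1, the regulatory subunit of PI3 kinase (-0.73, adjusted p = 0.00101), Sos2, an exchange factor for Ras (-0.70, adjusted p = 0.00183), the phosphatase gene Ptpn11, which encodes Shp2 (-0.55, adjusted p = 0.0163), and Nras (-0.53, adjusted p = 0.00184). Many of these genes serve other receptors too.

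Of the coreceptors and matrix genes, 25 of 28 were tested, 1 was higher and 7 were lower, with a median of -0.13. Flrt1, a membrane partner of FGF receptors, fell by 0.58 on the log2 scale (adjusted p = 0.0239), Ndst1, a heparan sulfate sulfotransferase, by 0.58 (adjusted p = 0.0174), and the glypican gene Gpc1 by 0.54 (adjusted p = 0.00901). Sulf2, which removes sulfate groups from heparan sulfate, rose by 0.52 (adjusted p = 0.0175). Of the targets and other feedback genes, 18 of 20 were tested, with 5 higher, 5 lower and a median of 0.13. Etv5, a transcription factor induced by FGF, fell by 0.62 (adjusted p = 0.0155) and Rasl11b, a small GTPase gene, by 0.91 (adjusted p = 0.00221). Etv4 and Etv1 in the same list were not called, at -0.10 (adjusted p = 0.630) and -0.01 (adjusted p = 0.975). The immediate early genes Egr1 and Dusp1 rose by 0.88 (adjusted p = 0.0228) and 0.76 (adjusted p = 0.00191). The genes of this list thus moved in both directions, and whether FGF signalling moved them was not tested.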

How the data were processed

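The 34 members, the lists and the tests were chosen with earlier results of these data known. The authors deposited Agilent Feature Extraction (12.0.1.1) output with spot and background intensity per channel and a log10 ratio, and a table of log2 ratios without centring. All 8 arrays lay on 1 slide, with the genotype along the slide rows, so that row and genotype cannot be told apart. Replicates are labeled biological. The median intensity was corrected by normexp (offset 50), control and outlier-flagged spots were left out, loess was applied within arrays, swapped arrays were turned to sample over reference and spots of a probe averaged. Normexp with an offset draws dim spots toward a ratio of 1. RefSeq accessions named 28026 of 29796 such probes. Genotype plus dye was fitted over 23139 genes with lmFit and eBayes (limma 3.58.1, R 4.3.3) and Benjamini-Hochberg adjustment. No value was imputed, and the number of arrays limits the precision. Deviations from the group means correlated within replicate numbers (0.49, 0.68, 0.33 and 0.36), so the number was also used as a block. It also marks the dye and the slide column, and after the dye was removed the correlations were -0.14, 0.23, -0.13 and 0.05. Called members and both Fgf1 probes are given array by array, and other members in brief. Of each pathway list up to 4 called genes with the largest change are named, with Etv4 and Etv1 added beside Etv5. The alternatives were background correction (none, offset 10, Feature Extraction log ratio, deposited table), normalization (median centring, Aquantile), filter, probe choice, dye term, replicate block, intensity trend, the methods' t-test and each array left out. The sample channel alone and the mean of the Y-linked genes Ddx3y, Eif2s3y, Kdm5d and Uty as a covariate were added after seeing the data. The 8 members without an upstream sequence here were Fgf1, Fgf8, Fgf15, Fgf16, Fgf17, Fgfr1, Spry3 and Spry4.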

Additional observations from a re-analysis of the deposited data

How the results depend on the processing

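Fgf1 was called in all 23 alternatives run on it, Spry1 in 22, and Spred2 and Frs2 in 21 each. The log2 fold change of Fgf1 ranged from 0.70 with the mean over its probes, under 2-fold, to 1.88 with the Feature Extraction log ratio. Fgf14 lost its call in 6, Fgfr3 in 10 and Fgfr1 in 15, and no called member changed sign. Of the 7 calls, 2 (Fgf1 and Spry1; 1 higher, 1 lower) were left without the dye term, and 1 (Fgf1, with 0 lower) with the methods' t-test after adjustment, with the methods' own rule of an unadjusted p below 0.05 and at least 2-fold, and with the 2-fold limit added. The count higher fell from 3 to 1 with median centring, the deposited table and the Feature Extraction log ratio. Leaving out 1 array gave 5 to 8 members called (2 to 3 higher, 3 to 5 lower), 5 to 10 probes, 15 to 27 pathway genes and 2724 to 5051 genes in all. The arrays that moved these counts most were control replicate 2 (2724 genes, 17 pathway genes and 5 probes without it), EED cKO replicate 4 (2951 genes and 15 pathway genes) and EED cKO replicate 3 (3340 genes and 19 pathway genes). Fgfr3 lost its call without any 1 of these 3 arrays, and Fgfr1 without any 1 array except EED cKO replicate 4. The replicate block, as a paired fit, gave 8 members, adding Fgf22, and changed no other member's call. Probes called went from 9 to 3 without the dye term, 1 with the adjusted t-test, the methods' rule and the 2-fold limit, and 5 with the Y-linked covariate. Pathway genes called went from 30 to 11 with median centring, 13 without the dye term, 3 with the adjusted t-test, 0 with the 2-fold limit and the methods' rule, and 17 with the Y-linked covariate. Over all genes, 5030 became 2554 with median centring, 2357 without the dye term, 913 with the adjusted t-test, 2799 with the Y-linked covariate, 278 with the 2-fold limit and 275 by the methods' rule. The share of calls that were higher was 54.2%, and 39.7% with median centring and 65.0% with the adjusted t-test. The gap between the Fgf1 probes fell from 1.18 to 0.92 in the deposited table and in the Feature Extraction log ratio, and to 0.97 with median centring, past the threshold. Members that are dim on these arrays (13 of 34) were not tested. The causes were not tested.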
